A study of Homo sapiens with 18 samples.

Results

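The comparison is between 2 populations of NCI-H460 cells, resistant 1 and resistant 2, in the absence of the drugs that they are resistant to. NCI-H460 is an established cell line from a human large cell carcinoma of the lung that grows as an adherent epithelial culture, and the populations are described in the labels as resistant to ATRA (all-trans retinoic acid) and to decitabine. Members were chosen by the sample labels: 3 resistant 1 libraries and 3 resistant 2 libraries treated with DMSO, which make up 6 of the 18 libraries of the series. The 3 parental DMSO libraries of the same table share the estimate of spread and are given as values beside some genes. All 9 cultures carried the wild-type genotype label, grew in RPMI-1640 with fetal bovine serum, received solvent alone (0.7% v/v) at 24 h after seeding, and were harvested at 72 h. The labels do not say how either resistant population was derived or whether it is a clone. The 3 replicates of a group come from 1 population, so the p-values speak about the spread between these libraries and not about other resistant populations.

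Decitabine is a cytidine analogue. It enters cells through nucleoside transporters, is phosphorylated by deoxycytidine kinase, is incorporated during replication and captures DNA methyltransferases in covalent complexes, so that methylation is lost over rounds of replication. Promoter methylation normally keeps germline genes of the cancer-testis class silent in somatic cells and marks the silent copy of imprinted genes. ATRA binds retinoic acid receptors, which sit on DNA together with retinoid X receptors and switch on genes of differentiation and of retinoid turnover. The comparison asks how far populations that share this resistance label resemble each other at baseline.

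The 6 libraries held 123695964 to 140921034 reads. The 10 most abundant genes took 5.03 to 5.26% of the reads in resistant 1 and 9.06 to 9.55% in resistant 2, where fibronectin (FN1) alone reached 5666712 to 6498403 reads. In a principal component analysis of the 9 libraries, components 1 and 2 took 50.7% and 46.6% of the variance. It used the 2000 genes that varied most over these same libraries, so the shares do not describe the transcriptome at large. Of epithelial markers, the keratins KRT8 (mean 116834 in resistant 1 and 78253 in resistant 2) and KRT18 (51024 in resistant 1 and 53115 in resistant 2) were abundant, while E-cadherin (CDH1) averaged 0.915 in resistant 1 and 1.07 in resistant 2 normalized counts. EPCAM averaged 3.9 in resistant 1 and 3.88 in resistant 2, and 93.5 in parental cells, so both defining markers of the labelled epithelial cell type were close to absent in the resistant populations. The locus genes CDKN2A and CDKN2B had 4 and 0 reads over the 6 libraries, and the neighbouring MTAP had 8086 ± 728 normalized counts in resistant 1 and 15031 ± 2281 in resistant 2 (SD, n = 3 libraries, as in all values given with ± beside a level). SFTPC, a surfactant gene of lung epithelium, had 1 read in all.

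The populations differed across much of the transcriptome. Of 21643 genes tested, 11555 (53.4%) passed an adjusted p of 0.05: 5928 (27.4%) were higher and 5627 (26.0%) lower in resistant 1 than in resistant 2. Differences of at least 4-fold were called in 2500 genes (11.6%), with 1314 (6.07%) higher and 1186 (5.48%) lower in resistant 1. The median log2 difference over all tested genes was 0.02, and 50.3% of the called genes lay within 2-fold. In 13062 genes (60.4%) all 3 libraries of one population lay above all 3 of the other. Among 14709 protein-coding genes, 29.0% were higher and 29.5% lower, 58.5% in all. All log2 differences are resistant 1 minus resistant 2 with their standard error, and all adjusted p-values are from limma with Benjamini-Hochberg adjustment over all tested genes. With 53.4% of all genes called, the call of a single gene or the share of a gene list called is to be read against these background shares. Some lists described below lay near that share, such as HOX (58.1% called), Polycomb (51.7%) and NRF2 target genes (55.2%). A listed gene that reached 10 normalized counts in 1 population only was tested because of that population. Its direction was largely fixed by this filter, so the list counts describe the tested members. In bulk RNA, more cells with a transcript and more transcript per cell cannot be told apart.

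Some genes were abundant in one population and without a read in the other. PASD1, a germline gene of the cancer-testis class (ENSG00000166049, chromosome X, 151563620 to 151676740, GRCh38), had 8383, 8451 and 8239.8 normalized counts in resistant 1, against 0, 0 and 0 in resistant 2 and 0 in parental cells, which makes it at least 2629-fold higher in resistant 1 against a floor of 3 counts per library. Schlafen 11 (SLFN11, ENSG00000172716, chromosome 17, 35350305 to 35373701), a helicase-like protein that blocks replication forks in cells with damaged DNA, had 4357, 4449 and 4177 normalized counts in resistant 1, against 0, 0 and 0 in resistant 2 (at least 1361-fold, adjusted p = 2.75e-12). The 3 parental libraries held 5655, 4545 and 5454 counts, so the level of resistant 1 lay close to the parental one and resistant 2 was the population without the transcript. Its relative SLFN13 was also lower in resistant 2, at 1016 ± 56.4 normalized counts in resistant 1 and 175 ± 65 in resistant 2 (log2 2.60 ± 0.23). For SLFN5, with 28227 ± 2078 normalized counts in resistant 1 and 25172 ± 7716 in resistant 2, the difference did not pass (adjusted p = 0.385, 0.0303 without resistant 2 replicate 1). SYCE1, a protein of the synaptonemal complex that joins chromosomes in meiosis, had 3484, 3441 and 3299 normalized counts in resistant 1, against 0, 0 and 0 in resistant 2 (at least 1072-fold). RNF212, another meiotic gene, averaged 1549.9 in resistant 1 with no read in resistant 2 (at least 488-fold), against 856 in parental cells. The adhesion molecule CDH8, a cadherin of the nervous system, stood at 14129.6 ± 659 normalized counts in resistant 1 and 9.79 ± 5.81 in resistant 2, and the mucin MUC15 at 973 ± 128 in resistant 1 with no read in resistant 2 (at least 306-fold).

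Other genes were abundant in resistant 2 and absent or far lower in resistant 1. CYP24A1, the mitochondrial enzyme that breaks down active vitamin D (ENSG00000019186, chromosome 20, 54153449 to 54173973), had 0.868, 0 and 0.966 normalized counts in resistant 1, against 42737, 73969.7 and 70682 in resistant 2, and 141, 258 and 320.4 in parental cells. With 2 reads in resistant 1 in all, the ratio in favour of resistant 2 was 102158-fold (95% counting interval 28279.9 to 843561), and the log2 difference was the largest of any protein-coding gene selected (-15.26 ± 0.35, adjusted p = 1.54e-10). The vitamin D receptor VDR, the transcription factor that drives CYP24A1, was lower in resistant 1 by a much smaller margin (log2 -0.77 ± 0.14), as was CYP27B1, which makes the active hormone (log2 -1.28 ± 0.19). IGFBP5, a secreted binding protein of insulin-like growth factors (ENSG00000115461, chromosome 2, 216672100 to 216695520), had 273, 278 and 236 normalized counts in resistant 1, against 319178, 343024 and 340679.7 in resistant 2. The parental level, 271 on average, lay at that of resistant 1. Ceruloplasmin (CP), a copper-carrying ferroxidase, stood at 5.79 ± 0.58 normalized counts in resistant 1 and 16033 ± 948 in resistant 2. Complement factor I (CFI) stood at 4.02 ± 2.52 normalized counts in resistant 1 and 5420.2 ± 151 in resistant 2. CSF2RB, a signalling chain shared by some receptors for interleukins and a colony-stimulating factor, stood at 0.91 ± 1.58 normalized counts in resistant 1 and 3296 ± 1770.2 in resistant 2. Its ratio was 3647-fold (95% counting interval 1248 to 17690.0) in favour of resistant 2. The small GTPase RHOD had no read in resistant 1 and 1063 ± 203 in resistant 2, which is at least 387-fold. Further genes of this group were the follistatin-like FSTL4 (log2 -10.13 ± 0.18), the growth factor FGF7 (log2 -9.83 ± 0.55), the secreted protein SCUBE1 (log2 -10.73 ± 0.19), the synapse-organizing SLITRK6 (log2 -9.65 ± 0.20), THSD7A (log2 -9.75 ± 0.26) and VWA2 (log2 -9.06 ± 0.44). Where one population had a few reads only, the fitted log2 difference depends on the pseudocount of 1.

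**Figure D1:**
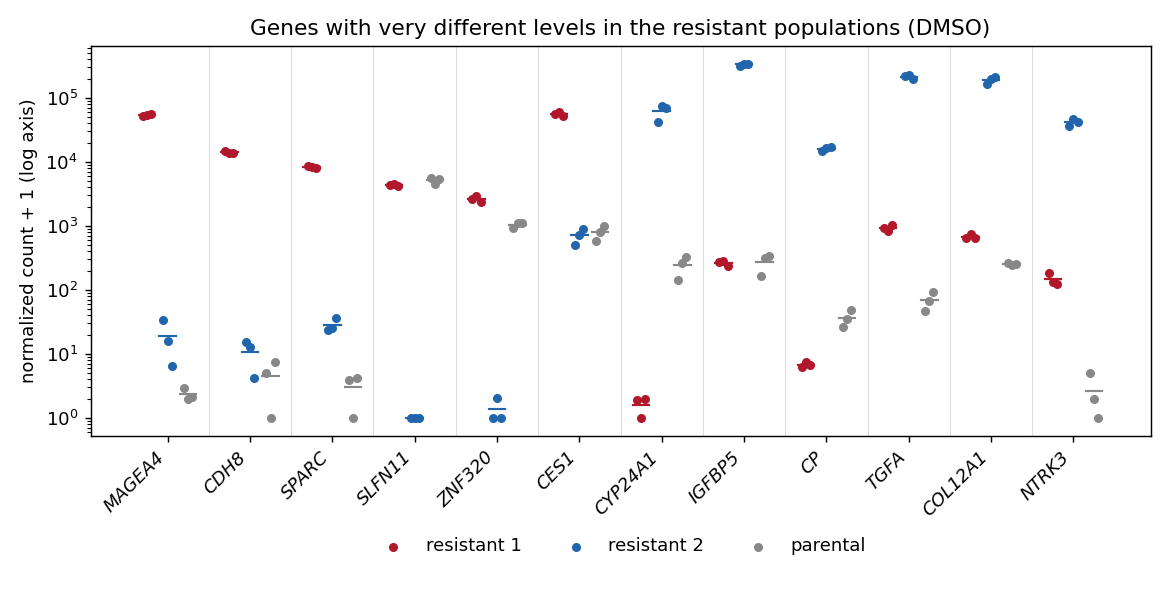
Normalized count plus 1 (log axis) of 12 genes in each library, with resistant 1, resistant 2 and parental from left to right within a gene and short lines at the mean of 3 libraries. The resistant 1 and resistant 2 libraries do not overlap in these 12 genes. This was a condition of selection for most of them and holds for 60.4% of all tested genes. SLFN11 has no read in resistant 2 while resistant 1 and parental lie near each other.

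Genes that were on in one population and off in the other (a mean of at least 100 in one and at most 5 in the other) numbered 73 for resistant 1 and 49 for resistant 2 among the protein-coding genes. Their promoters held fewer CG dinucleotides, the sites that DNA methyltransferases act on, in the median than those of all tested genes, with a wide range. In the 300 bases from 250 before to 50 after the transcript start (RefSeq, GRCh38.p14), the median was 16 CG for the 60 matched genes on in resistant 1 and 12 CG for the 40 matched genes on in resistant 2, beside 26 for 12001 tested protein-coding genes with an entry. Fewer than 10 CG were held by 31.7% of the promoters of genes on in resistant 1 and by 47.5% of those on in resistant 2, beside 14.7% of all. At least 20 CG were held by 31.7% of those on in resistant 1 and by 40% of those on in resistant 2, beside 68.0% of all. No methylation was measured, so these counts describe sequence only. Promoters are shown for the 2 named genes per direction with the largest difference and an entry so that their CG content can be seen, 5′ to 3′ with each CG in capitals. IGFBP5 is not one of the 49 genes on in resistant 2, because its level in resistant 1 was low but above the limit of 5. They are PASD1 (chrX:151563425-151563724, plus strand, 11 CG), PAGE5 (chrX:55220096-55220395, plus strand, 10 CG), IGFBP5 (chr2:216695500-216695799, minus strand, 9 CG) and CFI (chr4:109801950-109802249, minus strand, 2 CG).
PASD1: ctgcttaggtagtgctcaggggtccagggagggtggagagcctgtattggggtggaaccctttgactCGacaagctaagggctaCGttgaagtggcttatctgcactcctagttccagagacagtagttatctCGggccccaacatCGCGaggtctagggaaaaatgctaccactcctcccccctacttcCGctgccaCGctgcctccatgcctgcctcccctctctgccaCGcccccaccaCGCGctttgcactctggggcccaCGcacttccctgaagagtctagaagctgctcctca
PAGE5: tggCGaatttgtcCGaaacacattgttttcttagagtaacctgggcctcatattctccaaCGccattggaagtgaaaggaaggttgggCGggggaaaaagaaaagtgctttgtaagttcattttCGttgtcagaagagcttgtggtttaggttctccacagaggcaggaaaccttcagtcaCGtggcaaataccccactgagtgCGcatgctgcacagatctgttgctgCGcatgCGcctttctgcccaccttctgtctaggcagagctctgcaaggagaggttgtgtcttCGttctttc
IGFBP5: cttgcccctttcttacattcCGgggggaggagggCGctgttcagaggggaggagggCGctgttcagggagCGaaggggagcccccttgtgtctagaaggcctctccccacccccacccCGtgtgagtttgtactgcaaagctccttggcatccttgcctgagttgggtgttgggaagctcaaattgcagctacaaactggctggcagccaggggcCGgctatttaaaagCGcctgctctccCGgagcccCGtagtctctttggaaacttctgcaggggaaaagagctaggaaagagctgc
CFI: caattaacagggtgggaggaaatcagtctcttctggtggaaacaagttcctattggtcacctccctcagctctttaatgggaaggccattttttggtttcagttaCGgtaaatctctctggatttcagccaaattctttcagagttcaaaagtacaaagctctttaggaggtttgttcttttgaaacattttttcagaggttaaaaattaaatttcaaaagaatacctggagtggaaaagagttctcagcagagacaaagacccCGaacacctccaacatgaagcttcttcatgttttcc

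Cancer-testis genes stood mostly on the side of resistant 1. Of 41 listed genes 24 passed the filter on low values, of which 18 were higher and 4 lower in resistant 1, with a median log2 difference of 2.09 beside 0.02 for all genes. A total of 12 were at least 4-fold higher. Members such as PAGE5 and MAGEA11 passed the filter only through their resistant 1 libraries, as PIWIL1 did through resistant 2. The direction of such members was largely fixed by the filter, so these counts describe the tested members and do not test a lean of the list. MAGEA4, an X-linked member of the melanoma antigen family, had 52121, 54297 and 55478 normalized counts in resistant 1, against 32.9, 14.9 and 5.43 in resistant 2 (log2 difference 11.80 ± 0.46), and parental cells had 1.97, 0.958 and 1.08. The 3 resistant 1 libraries stood apart from all others, which were low. MAGEA11, a coactivator of the androgen receptor, had 3 reads in resistant 2 and was 1604-fold (95% counting interval 549 to 7782) higher in resistant 1. SSX1 averaged 11881 ± 421 normalized counts in resistant 1 and 11.4 ± 4.32 in resistant 2, and PAGE5 had 7828, 7871 and 7661 in resistant 1 against 1 read in all of resistant 2, a ratio of 22066-fold (95% counting interval 3960.0 to 871591). These intervals cover counting error only. VCX and VCX2 stood at 11691 ± 536 and 1327 ± 319 in resistant 1, with means of 2.46 and 1.43 in resistant 2. The MAGE, SSX, PAGE and VCX genes have near-identical copies, so that reads may be split between relatives and the values of a single member are uncertain. The members lower in resistant 1 included PIWIL1, which acts with small RNAs against transposons in the germline (log2 -5.77), and DAZL, a germ cell RNA-binding protein (log2 -4.47).

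Imprinted genes were split without a common direction, with 5 of 13 tested members higher and 5 lower, but all 5 higher members exceeded 4-fold. PEG10, a retrotransposon-derived gene expressed from the paternal copy (ENSG00000242265, chromosome 7, 94656325 to 94669695), had 2724, 2525 and 1909 normalized counts in resistant 1, against 14.4, 3.2 and 7.6 in resistant 2 (log2 8.17 ± 0.37). MEST, an imprinted hydrolase on the same chromosome, had 2215, 2774 and 2497 normalized counts in resistant 1, against 17.5, 40.5 and 47.8 in resistant 2 (log2 6.22 ± 0.29). For both genes the parental libraries were high (PEG10 5143, 3913 and 3875, MEST 4939, 4067 and 4686), and the resistant 2 libraries stood alone at the bottom. PEG3 had no read in resistant 2 or in parental cells and 117 ± 24.6 in resistant 1 (at least 36.8-fold). It passed the filter on low values through resistant 1 alone, so its place among the higher members was fixed by the filter. NDN, a growth-suppressing imprinted gene on chromosome 15, had 1171, 1103 and 1348 normalized counts in resistant 1, against 2.05, 4.26 and 8.69 in resistant 2 (log2 7.81 ± 0.34), against the direction of its chromosome described next. SGCE, the neighbour of PEG10, was also higher (log2 4.62), whereas IGF2 and PLAGL1 were lower in resistant 1 (log2 -1.69 and -1.95).

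The differences were not spread evenly along the genome. On chromosome 15, 368 of 491 tested protein-coding genes were lower and 36 higher in resistant 1, the median log2 difference was -0.94, and 84.9% of the genes lay below 0. Relative to the mean of the 9 libraries, the chromosome 15 median was -0.41 to -0.36 in the resistant 1 libraries, 0.56 to 0.57 in the resistant 2 libraries and -0.25 to -0.18 in the parental libraries, so each group's libraries lay together and apart from the others. In the parental comparisons, which share libraries with this one, the medians were -0.22 for resistant 1 and 0.74 for resistant 2. Chromosome 10 leaned the other way, with 315 of 576 genes higher and 100 lower (median 0.45), and here resistant 1 stood at 0.03 and resistant 2 at -0.34 against parental. Smaller shifts were found on chromosomes 14 and 8 (medians -0.25 and -0.25) and on chromosome 7 (0.21). Named genes on chromosome 15 that were lower in resistant 1 included ITGA11, CA12, CHAC1, B2M, NTRK3, SEMA6D, FGF7, RPS27L, SPRED1, CRABP1 and STRA6. Their differences are given in their own paragraphs as measured, without subtracting the shift of the chromosome. DNA copy number was not measured.

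**Figure D2:**
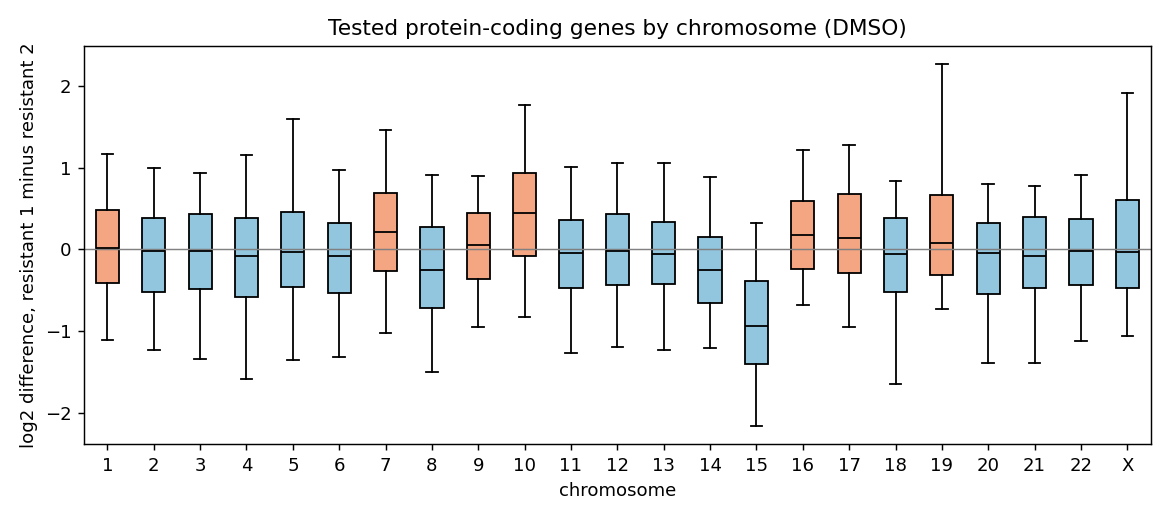
Log2 difference, resistant 1 minus resistant 2, of tested protein-coding genes on each chromosome, with the box at the quartiles, the line at the median and the whiskers at the percentiles 10 and 90 (orange, median above 0; blue, median below 0). The box of chromosome 15 lies wholly below 0 with its median at -0.94, and that of chromosome 10 is shifted upward with its median at 0.45.

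Windows of 40 neighbouring tested genes, moved along each chromosome in steps of 10 genes, placed these shifts. Neighbouring windows share most of their genes, so the number of windows is not a number of separate regions. Of 1390 windows, 44 had a median of -0.58 or below, all on chromosome 15, and 37 had a median of 0.58 or above, on chromosomes 10, 17 and 19. The highest window median, 3.66, belonged to chromosome 19 from 19516227 to 29675457 (GRCh38). Of its 40 genes 32 were higher in resistant 1, and it held 29 zinc finger genes of the ZNF series, DNA-binding proteins that mostly recruit silencing complexes to transposons. Of these 27 were higher, 22 of them at least 4-fold, and 11 had no read in resistant 2. The window was picked for its high median, so these counts describe it and are no further support. Members such as ZNF257 and ZNF728 had no read in resistant 2 or in parental cells. They passed the filter through resistant 1 alone, so their direction was fixed by it. ZNF91, which binds SVA elements, had 2464, 2678 and 2083 normalized counts in resistant 1, against 2.05, 3.2 and 10.9 in resistant 2 (log2 8.81 ± 0.40), and ZNF486 averaged 468 ± 41.5 in resistant 1 with no read in resistant 2 (at least 147-fold). ZNF681 averaged 381 in resistant 1 and 0.685 in resistant 2, and ZNF253 695 and 3.58. Within the same window ZNF675 differed by a small margin only (757 ± 48.7 normalized counts in resistant 1 and 439.6 ± 81 in resistant 2).

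Zinc finger genes of chromosome 19 as a whole, a grouping made after the values were seen, were more often higher than lower. Of all 230 tested ZNF genes on chromosome 19, 113 were higher and 26 lower in resistant 1, 68 were at least 4-fold higher and 24 had no read in resistant 2. These counts include the ZNF genes of the window above, and some members passed the filter through resistant 1 alone. The other 824 tested protein-coding genes of the chromosome had 205 higher and 160 lower, and the 242 ZNF genes of other chromosomes had 60 higher and 72 lower. ZNF320 had 2637, 2891 and 2371 normalized counts in resistant 1, against 0, 1.07 and 0 in resistant 2 and 921, 1091 and 1107 in parental cells. With 1 read in resistant 2 its ratio was 7473-fold (95% counting interval 1341 to 295217). ZNF347 followed this pattern, with 1588 in resistant 1, 1.43 in resistant 2 and 410.1 in parental cells. ZNF665 and ZNF677 instead were near 0 in parental cells too, with 749 ± 70.4 and 745 ± 152 in resistant 1 and no read in resistant 2 (at least 236-fold and 234-fold). ZNF genes resemble each other in sequence, so single values are uncertain where reads could match several of them.

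**Figure D3:**
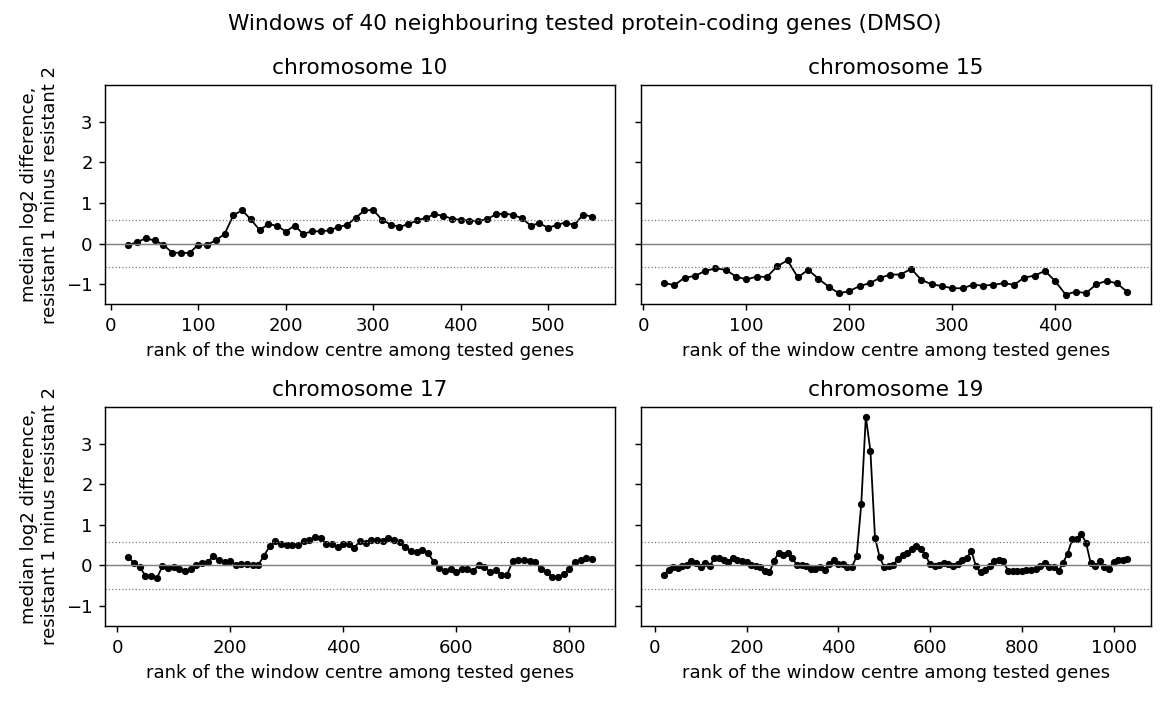
Median log2 difference, resistant 1 minus resistant 2, in windows of 40 neighbouring tested protein-coding genes against the rank of the window centre on chromosomes 10, 15, 17 and 19, with dotted lines at -0.58 and 0.58. Neighbouring windows overlap. Chromosome 15 lies below 0 along its length, chromosomes 10 and 17 have raised stretches, and chromosome 19 has a narrow peak that reaches 3.66.

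Genes of the extracellular matrix differed widely and mostly stood lower in resistant 1. Fibronectin (FN1), the adhesive glycoprotein of the matrix, had 1438604, 1430066 and 1190962 normalized counts in resistant 1, against 6230905, 6927291 and 6153016 in resistant 2 (log2 difference -2.25 ± 0.11, adjusted p = 2.71e-08), about 4.76-fold more in resistant 2, and parental cells had 383919, 348311 and 413658. All 6 resistant libraries lay above the parental ones and resistant 2 above resistant 1. With quantile normalization, which gives the most abundant gene of every library the same value, the FN1 difference was lost. Among laminins, type IV collagens and other basement membrane genes, 5 of 22 tested members were higher and 14 lower in resistant 1 (median log2 difference -0.94), with 3 higher where a single library of resistant 1 replicate 2 or 3 or resistant 2 replicate 1 or 2 was left out, and 3 in the fit with replicate blocks. The laminin chain LAMA4 stood at 1894 ± 415 normalized counts in resistant 1 and 37096 ± 1456 in resistant 2 (log2 -4.31 ± 0.23), LAMA3 at 2949 ± 131 normalized counts in resistant 1 and 14809 ± 2099 in resistant 2 (log2 -2.32 ± 0.12), and the neighbouring type IV collagens COL4A1 and COL4A2 were lower by similar amounts (-2.23 and -2.07 on the log2 scale). Of the fibrillar and other collagens, 4 of 29 tested members were higher and 18 lower in resistant 1 (median log2 difference -0.84). COL12A1, a collagen that coats fibrils, had 654, 737 and 648 normalized counts in resistant 1, against 167309, 200159 and 208827 in resistant 2 (log2 difference -8.14 ± 0.11, adjusted p = 4.67e-12). COL5A1, which seeds fibrils, had 101, 96.4 and 119.8 normalized counts in resistant 1, against 19939, 22571 and 34914 in resistant 2, and COL1A1, the main chain of type I collagen, averaged 26.9 ± 4.54 normalized counts in resistant 1 and 2195 ± 652 in resistant 2. COL8A1, a short-chain collagen, was the most abundant of those selected, at 31023 ± 2758 normalized counts in resistant 1 and 307979 ± 40471 in resistant 2 (log2 -3.31 ± 0.11). The exceptions in the other direction were COL6A1 (log2 2.60), COL6A3 (0.93) and the crosslinking enzymes LOXL3 and LOXL4 (4.94 and 1.46), while the crosslinker LOX was lower (-5.86).

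Fibroblast markers moved with the matrix genes in part. The summed level of 12 fibroblast markers, which include COL1A1 and COL3A1, was 4686 to 5157 normalized counts in the resistant 1 libraries, against 7790.3 to 8530 in those of resistant 2, and no marker was at 0 in all 6 libraries. Its largest part was the smooth muscle actin ACTA2, with 4360.2 in resistant 1 and 4222 in resistant 2. Of the defining surface markers, THY1 averaged 0.915 in resistant 1 and 0 in resistant 2 and PDGFRA 8.18 in resistant 1 and 8.08 in resistant 2. FAP averaged 1.53 in resistant 1 and 78.4 in resistant 2, and PDGFRB 286 ± 13.1 normalized counts in resistant 1 and 1167 ± 102 in resistant 2. The proteoglycans DCN and LUM, also fibroblast markers, were higher in resistant 1 on average (DCN 117 in resistant 1 and 31.9 in resistant 2, LUM 58.5 in resistant 1 and 41.1 in resistant 2). The part of such markers in the matrix differences was not tested.

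Matricellular proteins, which modulate adhesion, split by member, with 8 of 28 higher and 11 lower. In all 67.9% were called, beside 53.4% of all tested genes. Periostin passed the filter on low values only through its resistant 2 libraries, so its direction was largely fixed by it. Periostin (POSTN) averaged 7.5 ± 5.19 normalized counts in resistant 1 and 3019 ± 751 in resistant 2 and versican (VCAN), a large proteoglycan, 136 ± 7.47 normalized counts in resistant 1 and 4538 ± 1902 in resistant 2. SPARC, a collagen-binding protein of the same class, had the opposite pattern, 8545, 8204 and 8126 normalized counts in resistant 1, against 22.6, 24.5 and 35.8 in resistant 2 (log2 difference 8.20 ± 0.46, adjusted p = 9.8e-08), and parental cells had 2.95, 0 and 3.25. Fibrillin 2 (FBN2), a microfibril component, was also higher in resistant 1, at 277198 ± 17852 normalized counts in resistant 1 and 13414 ± 2364 in resistant 2 (log2 4.38 ± 0.12). Osteopontin (SPP1) and TGFBI were abundant in both and lower in resistant 1 (log2 -1.37 ± 0.12 and log2 -1.52 ± 0.09).

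The proteases that cut this matrix differed in opposite directions. Interstitial collagenase MMP1 had 359323, 343267 and 312815 normalized counts in resistant 1, against 10259, 7370.3 and 7223 in resistant 2 (log2 difference 5.37 ± 0.16, adjusted p = 8.71e-10), 40.9-fold more in resistant 1. Gelatinase A (MMP2) had 978, 971 and 1045 normalized counts in resistant 1, against 79766, 106261 and 146033 in resistant 2 (log2 difference -6.75 ± 0.25, adjusted p = 3.79e-09). Parental cells held little of either, with 1342, 1449 and 1942 of MMP1 and 4.92, 3.83 and 2.16 of MMP2, so MMP1 was highest in resistant 1 and MMP2 in resistant 2 among the 3 populations. The inhibitor TIMP1 averaged 45561 ± 4866 normalized counts in resistant 1 and 400276 ± 134227 in resistant 2 (log2 -3.09 ± 0.19). TIMP3, which stays bound to the matrix, averaged 1866 ± 995 normalized counts in resistant 1 and 32762 ± 9190.3 in resistant 2 (log2 -4.22 ± 0.53). MMP3 and MMP12 were higher (log2 2.77 and 3.24), as was ADAMTS12 (log2 3.33 ± 0.19). Over the list, 6 of 25 were higher and 9 lower.

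Among integrin subunits, the receptors for this matrix, 2 of 19 were higher and 10 lower. The collagen receptor chain ITGA11 averaged 69 ± 5.72 normalized counts in resistant 1 and 4489 ± 853 in resistant 2 (log2 -5.99 ± 0.16), ITGB8, which helps to free latent TGF-beta, 533 ± 75.4 normalized counts in resistant 1 and 27575 ± 5164 in resistant 2 (log2 -5.68 ± 0.17), and ITGB4, the laminin receptor chain of hemidesmosomes, 315 ± 15.8 normalized counts in resistant 1 and 5036 ± 1706 in resistant 2 (log2 -3.94 ± 0.23). The laminin receptor chain ITGA7 was higher (log2 2.60 ± 0.20). The shared beta chain ITGB1 averaged 160133 in resistant 1 and 164891 in resistant 2 and did not pass.

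Cell-cell adhesion genes did not move in a single direction. Of the tight junction and desmosome genes 6 of 23 were higher and 7 lower. The 56.5% called lay near the 53.4% of all tested genes, so these counts show no property of the list. Claudin 4 (CLDN4), a tight junction strand protein, had 5788, 6436 and 9218 normalized counts in resistant 1, against 33.9, 33 and 52.1 in resistant 2 (log2 difference 7.46 ± 0.27, adjusted p = 3.82e-09), with 2534, 2347 and 1319 in parental cells. Cingulin (CGN) and CLDN7 were higher in resistant 1 as well (log2 4.14 ± 0.31 and log2 2.27 ± 0.28), while plakophilin 2 (PKP2), a desmosomal plaque protein, was lower (log2 -2.16 ± 0.15). Among cadherins and the transcription factors of epithelial-mesenchymal transition, 5 of 16 were higher and 9 lower. N-cadherin (CDH2) averaged 2200.5 ± 284 normalized counts in resistant 1 and 9105 ± 682 in resistant 2 (log2 -2.05 ± 0.12) and CDH6 4.58 ± 1.63 normalized counts in resistant 1 and 423 ± 233 in resistant 2, whereas CDH11 averaged 90467 ± 6821 normalized counts in resistant 1 and 8786 ± 1938 in resistant 2 (log2 3.39 ± 0.15) and CDH4 1139 ± 192 normalized counts in resistant 1 and 116 ± 24.7 in resistant 2. PRRX1, a mesenchymal homeobox factor, was lower (log2 -3.98 ± 0.33), SNAI2 too (log2 -2.60), and ZEB1 and ZEB2 differed by less than 2-fold in opposite directions (-0.61 and 0.84). Vimentin (VIM), the mesenchymal intermediate filament, was abundant in both, at 245421 ± 15943 normalized counts in resistant 1 and 173774 ± 12739 in resistant 2 (log2 0.50 ± 0.09). Keratins were likewise split, with KRT19 higher (188443 ± 42898 normalized counts in resistant 1 and 31026 ± 10057 in resistant 2) and KRT81, a hair keratin, lower (364 ± 176 normalized counts in resistant 1 and 102249 ± 21870.0 in resistant 2). KRT81 and KRT86 are near-identical, so the values of each are uncertain.

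The TGF-beta and BMP pathway, which drives matrix production and growth arrest, was mostly lower in resistant 1: of 43 tested members 3 were higher and 30 lower in resistant 1, with a median log2 difference of -1.20. With quantile normalization 5 were higher. Of the ligands, TGFB3 averaged 76.9 ± 13.8 normalized counts in resistant 1 and 2631 ± 381 in resistant 2 (log2 -5.08 ± 0.16), BMP2 and BMP4 were lower (log2 -2.27 and -2.60), and the activin chain INHBA was higher (2.92). TGFB1 and TGFB2 did not pass (adjusted p = 0.277 and 0.837). The receptor TGFBR2 had 2735, 2764 and 2784 normalized counts in resistant 1, against 22028, 24549 and 29162 in resistant 2 (log2 difference -3.18 ± 0.12, adjusted p = 3.68e-09), and LTBP3, which holds the ligand in the matrix, was lower (log2 -3.03 ± 0.17). Of the intracellular mediators SMAD3 was lower (log2 -1.30). Of the targets, the inhibitory SMAD6 and SMAD7 (-2.67 and -2.68), ID1, ID2 and ID3 (-1.80, -1.89 and -1.98) and SKIL (-1.98) were lower together, and SMAD3 and SMAD6 lie on chromosome 15. ID4 had 3 reads in resistant 1 and 841 ± 132 counts in resistant 2, a ratio of 919-fold (95% counting interval 314 to 4461).

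**Figure D4:**
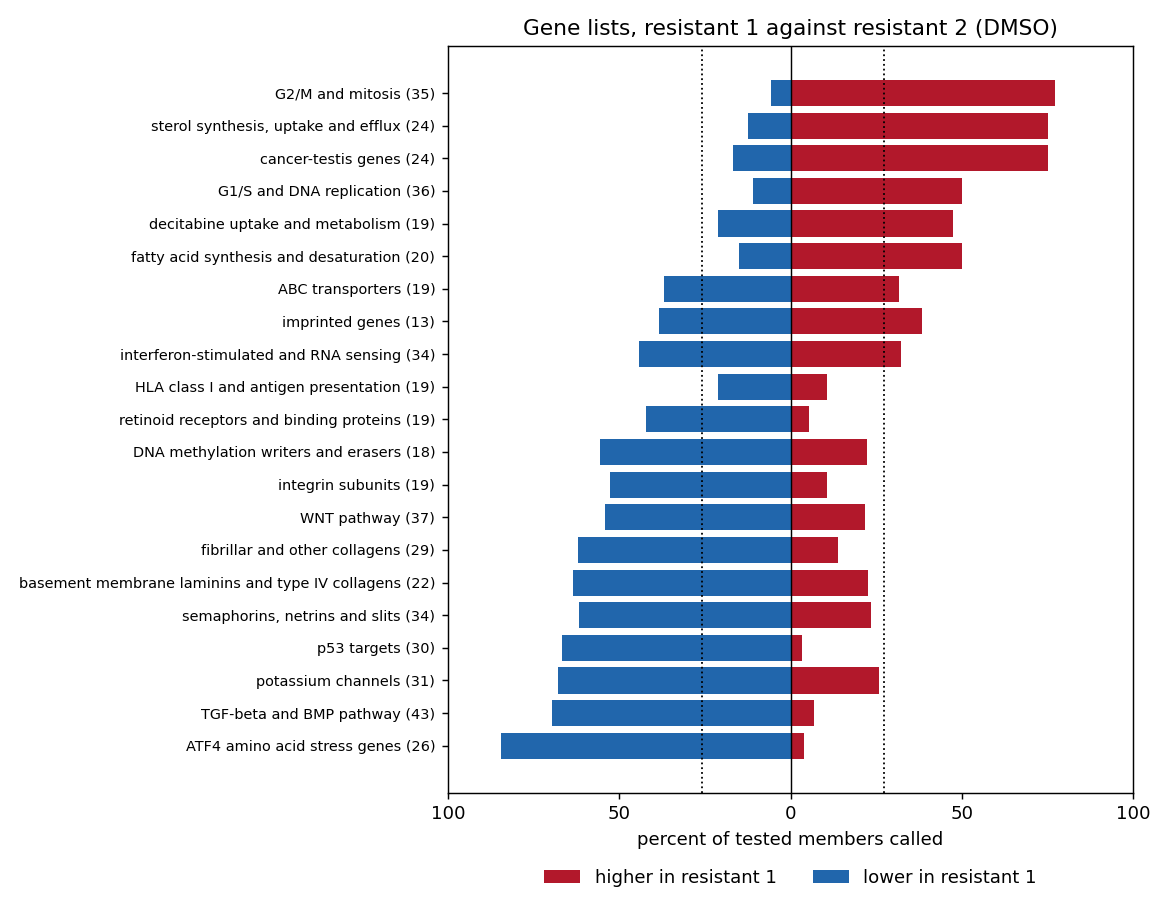
Percent of the tested members of 21 gene lists called higher (right) and lower (left) in resistant 1, with the number tested in parentheses and dotted lines at the shares of all tested genes, 27.4% higher and 26.0% lower. G2/M, sterol and cancer-testis genes lean to resistant 1, and ATF4, TGF-beta, potassium channel and p53 genes lean to resistant 2. Some listed genes, such as several cancer-testis genes, PEG3 and WIF1, passed the filter on low values only through the population where they are high.

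WNT pathway genes were more often lower than higher in resistant 1 (20 and 8 of 37). WIF1, counted among the lower, passed the filter on low values through resistant 2 alone, so its direction was fixed by it. The ligand WNT4 had 95.5, 70.0 and 100.4 normalized counts in resistant 1, against 7135, 8212 and 8569 in resistant 2 (log2 -6.49 ± 0.22), while WNT7B and WNT10B were higher (log2 4.20 and 2.20). RNF43, a ligase that removes WNT receptors, averaged 41.8 ± 6.94 normalized counts in resistant 1 and 1084 ± 193 in resistant 2, and AXIN2, a target of the canonical pathway, was lower (log2 -2.99). LGR5, the R-spondin receptor of stem cells, ran the other way, at 1050.0 ± 57.9 normalized counts in resistant 1 and 52.8 ± 30.1 in resistant 2 (log2 4.51 ± 0.42), and the secreted antagonist DKK1 was higher (log2 3.36). Of the Notch genes 5 of 19 were higher and 6 lower, so that 57.9% were called, near the 53.4% of all tested genes. The receptor NOTCH3, its ligand JAG1 and the target HEY1 were lower together (log2 -2.75 ± 0.16, log2 -2.13 ± 0.13 and log2 -2.25 ± 0.14), and NOTCH4 was higher (log2 3.60).

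Axon guidance genes, which also steer migrating cells, were lower in 21 of 34 and higher in 8. SLIT3, a secreted repellent, had 493, 437 and 456 normalized counts in resistant 1, against 56289.6, 44142 and 46229 in resistant 2 (log2 -6.72 ± 0.39), and 1.97, 2.87 and 0 in parental cells. The semaphorin SEMA6D averaged 14.4 ± 2.81 normalized counts in resistant 1 and 4542 ± 496 in resistant 2, and the netrin receptor UNC5C 136 ± 46.4 normalized counts in resistant 1 and 4938 ± 1393 in resistant 2. SEMA3E had the reverse, 1216, 1451 and 1257 normalized counts in resistant 1, against 15.4, 12.8 and 9.77 in resistant 2, with 6294, 6084 and 7527 in parental cells, so that both resistant populations lay below parental cells and resistant 2 lowest. Of the Eph family 2 of 16 were higher and 8 lower, led by the receptor EPHA5 (240.4 ± 56.8 normalized counts in resistant 1 and 3839 ± 263 in resistant 2) and, on the higher side, the ligand EFNB1 (log2 2.33 ± 0.18). The summed level of 14 neural and neuroendocrine markers was 24579 to 27303 normalized counts in the resistant 1 libraries, against 31492 to 36984 in those of resistant 2, with NEUROD1 at 0 in all 6 libraries. The neuronal cytoskeletal MAP2 and the granule protein chromogranin A (CHGA) were lower in resistant 1 (log2 -1.88 ± 0.13 and log2 -1.71 ± 0.17), and the growth cone protein GAP43 was higher (log2 2.78 ± 0.23).

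Ligands of the EGF receptor family also differed in opposite directions. Transforming growth factor alpha (TGFA) had 911, 817 and 1032 normalized counts in resistant 1, against 216431, 227912 and 195257 in resistant 2 (log2 difference -7.86 ± 0.20, adjusted p = 3.63e-10). Epiregulin (EREG) had 1747, 2342 and 2432 normalized counts in resistant 1, against 111, 40.5 and 44.5 in resistant 2 (log2 difference 5.17 ± 0.35, adjusted p = 4.04e-07), and neuregulin 1 (NRG1), a ligand of ERBB3 and ERBB4, 17151, 19352 and 19598 normalized counts in resistant 1, against 3162, 3560.4 and 3788 in resistant 2 (log2 2.42 ± 0.10). The groups did not overlap for any of the 3 ligands, which is so for 60.4% of all tested genes. The receptors EGFR and ERBB2 were higher in resistant 1 by smaller amounts (log2 1.13 and 1.35). The neurotrophin receptors NTRK3 and NTRK2 were lower: NTRK3 had 182, 132 and 125 normalized counts in resistant 1, against 36796, 46675 and 42491 in resistant 2, with 3.94, 0.958 and 0 in parental cells (log2 difference -8.17 ± 0.44, adjusted p = 7.48e-08), and NTRK2 averaged 47 ± 5.29 normalized counts in resistant 1 and 2214 ± 21.1 in resistant 2. KIT was lower (log2 -3.63 ± 0.33) and KDR, the VEGF receptor, higher (log2 3.45 ± 0.28), while its ligand VEGFA was lower (7450.1 ± 428 normalized counts in resistant 1 and 31942 ± 5814 in resistant 2). Of all receptor kinases listed 9 of 27 were higher and 10 lower. DUSP5, a phosphatase that ERK induces and that switches ERK off, averaged 57572 ± 8052 normalized counts in resistant 1 and 4216 ± 1999.7 in resistant 2 (log2 3.88 ± 0.40). SPRY1 and SPRED1, which restrain RAS, were lower instead (log2 -2.04 ± 0.19 and log2 -1.87 ± 0.11), and SPRED1 lies on chromosome 15. IGF2BP1, an oncofetal RNA-binding protein, stood at 2598 ± 125 normalized counts in resistant 1 and 11.3 ± 3.14 in resistant 2, and IGFBP4 at 3334 ± 312 normalized counts in resistant 1 and 104853 ± 5448 in resistant 2.

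Cell cycle genes were more often higher than lower in resistant 1. Among 35 G2/M and mitotic genes that were tested, 27 were higher and 2 lower in resistant 1, with a median log2 difference of 0.80, and of 36 genes of G1/S and replication 18 were higher and 4 lower in resistant 1, with a median log2 difference of 0.62. The G1/S count depended on single libraries. It was 13 higher without resistant 1 replicate 1 and 29 without resistant 2 replicate 3, beside 29.0% of all protein-coding genes in the reported fit. The G2/M count ran from 27 to 31 when single libraries were left out. MKI67, the proliferation antigen Ki-67, had 25741, 23971 and 21063 normalized counts in resistant 1, against 7638, 8998 and 11425 in resistant 2 (log2 difference 1.35 ± 0.14, adjusted p = 1.16e-05). The mitotic kinase PLK1 had 7994, 7427 and 8387 normalized counts in resistant 1, against 2409.5, 2434 and 3761 in resistant 2 (log2 difference 1.50 ± 0.17, adjusted p = 2.72e-05). The parental libraries lay above both, with 64793, 55095 and 56738 of MKI67 and 19616, 17154 and 14044 of PLK1, so the order for these genes was resistant 2, resistant 1 and parental from low to high. E2F2, a transcription factor of the G1/S switch, averaged 972 ± 102 normalized counts in resistant 1 and 267 ± 198 in resistant 2 (log2 2.14 ± 0.42), and the kinetochore genes NUF2 and SPC25 were higher by smaller amounts (log2 1.28 ± 0.12 and log2 1.36 ± 0.20). In resistant 2 replicate 3 stood highest of the 3 libraries for E2F2, PLK1, SPC25 and MKI67. Cyclin D3 (CCND3) went against the list, at 5106 ± 1030.3 normalized counts in resistant 1 and 19213 ± 11114 in resistant 2 (log2 -1.76 ± 0.35), as did cyclin D1 (CCND1, log2 -1.17).

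Targets of p53, which arrests or kills cells with damaged DNA, were lower in resistant 1 in 20 of 30 tested members, with a median log2 difference of -0.61. CDKN1A (p21), the CDK inhibitor that p53 induces, had 66307, 64649 and 73416 normalized counts in resistant 1, against 147528, 115620.4 and 103221 in resistant 2 (log2 difference -0.83 ± 0.14, adjusted p = 0.000441), and both populations lay far above the parental 4254, 5435 and 5461. RRM2B, the p53-induced ribonucleotide reductase subunit, averaged 22165 ± 1345 normalized counts in resistant 1 and 60067 ± 9020.0 in resistant 2 (log2 -1.43 ± 0.13), TP53INP1 3783 ± 365 normalized counts in resistant 1 and 9411 ± 853 in resistant 2 (log2 -1.32 ± 0.13) and AEN, an apoptotic nuclease on chromosome 15 like RPS27L, 8420.1 ± 235 normalized counts in resistant 1 and 20908 ± 1814 in resistant 2 (log2 -1.31 ± 0.09). RPS27L, a ribosomal protein paralogue induced by p53, was lower as well (log2 -1.40 ± 0.09). No difference of this list reached 4-fold. The one called member on the other side, GDF15 (log2 0.87), lost its call without resistant 1 replicate 2 or 3 or resistant 2 replicate 2, with replicate blocks over 9 libraries, with TMM rescaling, a pseudocount of 0.25 or no filter, and with edgeR or DESeq2. In the BCL2 family 6 of 16 members were lower, among them the survival genes BCL2L2 (log2 -1.37 ± 0.12) and BCL2 (log2 -0.75 ± 0.10) and the death-promoting PMAIP1 (log2 -0.72 ± 0.16).

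Genes that handle decitabine leaned to resistant 1, with 9 of 19 higher and 4 lower. The equilibrative nucleoside transporter SLC29A1, a route of entry for the drug, had 3355, 3226 and 3725 normalized counts in resistant 1, against 409, 641 and 1181 in resistant 2 (log2 difference 2.34 ± 0.29, adjusted p = 4.43e-05), and SLC29A2 1579, 1604 and 1715 normalized counts in resistant 1, against 245, 235 and 184 in resistant 2 (log2 difference 2.89 ± 0.15, adjusted p = 6.53e-08). In resistant 2 these transporters were 4.62-fold and 7.38-fold below resistant 1, and the parental libraries were above both, at 8100.4, 7782 and 6789 and 3085, 3816 and 2681. Deoxycytidine kinase (DCK), which activates the drug, had 3542, 3886 and 3260.4 normalized counts in resistant 1, against 2036, 2109 and 2333 in resistant 2 (log2 difference 0.72 ± 0.11, adjusted p = 0.000304), and the parental mean of 3769 lay near that of resistant 1. Of the inactivating enzymes, CDA and SAMHD1 were higher in resistant 1 too. Cytidine deaminase (CDA) averaged only 79.8 ± 10.0 normalized counts in resistant 1 and 13.8 ± 2.31 in resistant 2 (log2 2.45 ± 0.28), and SAMHD1, which hydrolyses the active triphosphate, 5494 ± 231 normalized counts in resistant 1 and 3286 ± 761 in resistant 2 (log2 0.77 ± 0.15). On the other side were NT5E, a surface enzyme that strips phosphate from nucleotides (9261 ± 2126 normalized counts in resistant 1 and 25834 ± 1173 in resistant 2, log2 -1.50 ± 0.14), RRM2B (log2 -1.43 ± 0.13), the deaminase DCTD (log2 -0.63) and the kinase CMPK1 (log2 -0.58).

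Differences in DNA methyltransferases were smaller than those of the transporters. DNMT1, the maintenance enzyme and target of the drug, had 10106, 9886 and 10687 normalized counts in resistant 1, against 5997, 6610.3 and 8968 in resistant 2 (log2 difference 0.53 ± 0.14, adjusted p = 0.007), with 29198, 28378 and 24516 in parental cells. The de novo enzyme DNMT3A had 1667, 1827 and 1564 normalized counts in resistant 1, against 4244, 3873 and 3569 in resistant 2 (log2 difference -1.21 ± 0.11, adjusted p = 4.27e-06). For DNMT3B, 385 ± 46.2 normalized counts in resistant 1 and 374 ± 67.8 in resistant 2, the difference did not pass (log2 difference 0.05 ± 0.17, adjusted p = 0.824). Of the list of methylation writers and erasers, 4 of 18 were higher and 10 lower, among them the demethylases TET2 and TET3 (log2 -0.98 ± 0.11 and log2 -0.94 ± 0.09), while TET1 was higher (log2 0.66).

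**Figure D5:**
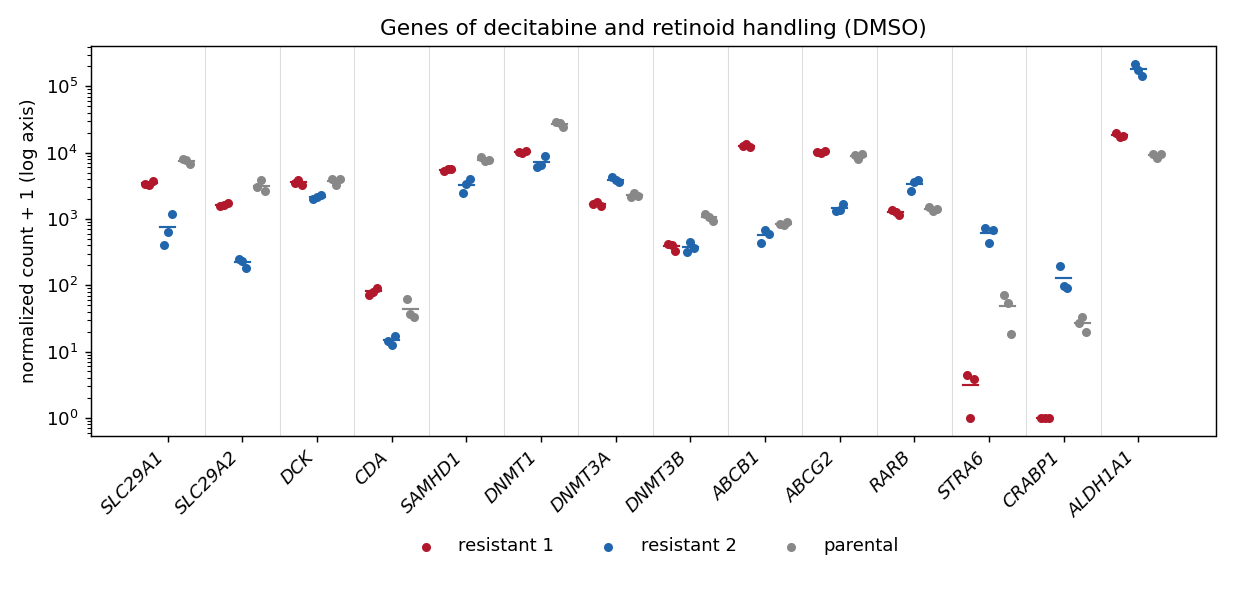
Normalized count plus 1 (log axis) of 14 genes of decitabine and retinoid handling in each library, with resistant 1, resistant 2 and parental from left to right within a gene and short lines at the mean of 3 libraries. The nucleoside transporters and the efflux pumps ABCB1 and ABCG2 are lower in resistant 2 than in resistant 1, CRABP1 has no read in resistant 1, and DNMT3B overlaps.

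Efflux pumps were among the largest differences of drug-related genes. ABCB1 (P-glycoprotein, MDR1), which exports many drugs, had 12506, 13412 and 12195 normalized counts in resistant 1, against 428, 680.1 and 583 in resistant 2 (log2 difference 4.52 ± 0.15, adjusted p = 2.2e-09), 22.5-fold more in resistant 1, and parental cells had 832, 797 and 898. ABCG2 (BCRP) had 10145, 9959.6 and 10454 normalized counts in resistant 1, against 1321, 1371 and 1705 in resistant 2 (log2 difference 2.81 ± 0.12, adjusted p = 8.6e-09). Parental cells had 9089.9, 7915 and 9716 of ABCG2, near the level of resistant 1. Over the ABC list 6 of 19 were higher and 7 lower, with ABCC3 on the lower side (log2 -1.94). In all 68.4% were called, beside 53.4% of all tested genes.

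Among retinoid genes, large differences were found for uptake and binding. STRA6, the membrane receptor that takes up retinol, had 3.47, 0 and 2.9 normalized counts in resistant 1, against 735, 426 and 679.7 in resistant 2 (log2 difference -7.85 ± 0.61, adjusted p = 1.27e-06), and CRABP1, which binds retinoic acid in the cytoplasm, had no read in resistant 1, against 193, 98.1 and 91.2 in resistant 2 (at least 46.5-fold). Both lie on chromosome 15. The receptor RARB, itself a retinoic acid target, averaged 1266 ± 98.1 normalized counts in resistant 1 and 3392 ± 669.5 in resistant 2 (log2 difference -1.40 ± 0.15, adjusted p = 1.25e-05). RARA (log2 -0.43 ± 0.16) and RXRA (log2 -0.58 ± 0.20) passed narrowly (adjusted p = 0.0417 and 0.0328). They missed the threshold with replicate blocks (adjusted p = 0.0713 and 0.0605) and without resistant 1 replicate 1 or 2 or resistant 2 replicate 1 or 3. RARG did not pass (log2 difference -0.06 ± 0.13, adjusted p = 0.707). Of 19 tested receptors and binding proteins 8 were lower in resistant 1. The coactivator NCOA3 was the one member higher (log2 0.62), a call lost without resistant 1 replicate 2 or resistant 2 replicate 3. The orphan receptor NR2F2, also on chromosome 15, was lower (log2 -1.46 ± 0.15).

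In retinoic acid synthesis, 2 aldehyde dehydrogenases moved in opposite directions. ALDH1A1 had 20058, 17117 and 17819 normalized counts in resistant 1, against 220595, 177507 and 141885 in resistant 2 (log2 difference -3.28 ± 0.14, adjusted p = 1.32e-08). ALDH1A2, on chromosome 15, had 195, 220.2 and 202 normalized counts in resistant 1, against 5.14, 8.53 and 13 in resistant 2 (log2 difference 4.46 ± 0.64, adjusted p = 0.000143). The degrading enzyme CYP26B1 and the retinaldehyde reductase DHRS3, both induced by retinoic acid in other settings, were lower in resistant 1 (log2 -2.51 ± 0.22 and log2 -1.94 ± 0.19). Over the list 4 of 17 were higher and 7 lower. ALDH1A2 passed the filter on low values only through its resistant 1 libraries, so its direction was largely fixed by it. HOX genes, many of them retinoid-responsive in development, were lower in 14 of 31 tested members. HOXA11 differed most, at 54.6 ± 5.53 normalized counts in resistant 1 and 676 ± 68.9 in resistant 2 (log2 -3.60 ± 0.15), and HOXA10 was lower as well (log2 -1.24 ± 0.14). Of the HOX genes 4 were called higher, but 1 without resistant 1 replicate 1 or resistant 2 replicate 3 and 2 without resistant 1 replicate 2.

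Interferon-stimulated genes did not move together: 11 of 34 were higher and 15 lower. IFI44L had 45.1, 38.2 and 28 normalized counts in resistant 1, against 1411, 1418 and 1386 in resistant 2 (log2 difference -5.23 ± 0.17, adjusted p = 1.87e-09), and its neighbour IFI44 averaged 187 ± 40.2 normalized counts in resistant 1 and 2839 ± 274 in resistant 2. Parental cells had 2839, 2405 and 2941 of IFI44L, above both populations. IFITM1 and BST2 (tetherin), which block viruses at entry and release, were lower (log2 -3.34 ± 0.33 and log2 -2.68 ± 0.23), while IFI27, IFIT1 and the sensor IFIH1 were higher (log2 1.49, 1.54 and 1.00). Of the antigen presentation genes 2 of 19 were higher (4 with quantile normalization or with replicate blocks in the 6 resistant libraries alone) and 4 lower. B2M, the light chain of class I molecules, averaged 71935 ± 3442 normalized counts in resistant 1 and 164958 ± 17169 in resistant 2 (log2 -1.19 ± 0.11), and PSMB9, an immunoproteasome subunit, 2376 ± 60.8 normalized counts in resistant 1 and 969.6 ± 291 in resistant 2 (log2 1.33 ± 0.18).

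Complement genes were more often lower than higher in resistant 1, with 9 of 16 lower and 5 higher. The count includes CFI, which passed the filter on low values through resistant 2 alone, so its direction was fixed by it. C3, the central component, had 909, 579 and 1413 normalized counts in resistant 1, against 21937, 15981 and 21937 in resistant 2 (log2 -4.44 ± 0.26), and C1R averaged 609 ± 45.4 normalized counts in resistant 1 and 5990.2 ± 989.9 in resistant 2 (log2 -3.29 ± 0.13). The membrane protector CD55 was higher in resistant 1 (410395 ± 9911 normalized counts in resistant 1 and 187606 ± 51092 in resistant 2). Of the cytokine and chemokine receptors 10 of 32 were higher and 15 lower. IL13RA2, a decoy receptor of interleukin 13, had 183, 240.2 and 425 normalized counts in resistant 1, against 42483, 34996 and 36464 in resistant 2 (log2 difference -7.15 ± 0.26, adjusted p = 3.43e-09), and TNFRSF1B, a TNF receptor, 459, 534 and 512 normalized counts in resistant 1, against 42.1, 32 and 22.8 in resistant 2 (log2 3.96 ± 0.24). CXCR4, a chemokine receptor, was lower (log2 -3.82 ± 0.45). Among the ligands, the alarmin IL1A, the monocyte attractant CCL2 and CSF1 were lower (log2 -2.33 ± 0.39, log2 -3.36 ± 0.48 and log2 -1.88 ± 0.21), and CXCL6 and CCL5 higher (log2 4.73 and 3.65). Markers of immune cells were close to absent: 12 of them summed to 172 to 258 normalized counts in resistant 1 and 139 to 222 in resistant 2, with AIF1 and NKG7 at 0 in all 6 libraries and the pan-leukocyte PTPRC at 1.85 in resistant 1 and 15.9 in resistant 2. The 12 endothelial markers summed to 2525 to 4688 in resistant 1 and 1728 to 3251 in resistant 2, most of it EGFL7, with CLDN5 at 0 in all 6 and CDH5 at 0.625 in resistant 1 and 4.55 in resistant 2.

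Lipid genes leaned to resistant 1. Of 24 genes of sterol synthesis, uptake and efflux, 18 were higher and 3 lower in resistant 1, with a median log2 difference of 0.61 (1 lower without resistant 1 replicate 3). INSIG1, a sensor that holds back SREBP and is induced by it, had 2833, 3116 and 2821 normalized counts in resistant 1, against 648, 497 and 554 in resistant 2 (log2 difference 2.37 ± 0.11, adjusted p = 2.45e-08). The parental mean of INSIG1, 10045, lay above both populations. The cholesterol exporters differed in opposite directions, with ABCA1 at 2229 ± 282 normalized counts in resistant 1 and 72.8 ± 2.56 in resistant 2 (log2 4.91 ± 0.15) and ABCG1 at 1586 ± 16.2 normalized counts in resistant 1 and 6665 ± 2255 in resistant 2 (log2 -2.02 ± 0.19). Of the fatty acid genes 10 of 20 were higher and 3 lower, including acetyl-CoA carboxylase ACACA (log2 1.48 ± 0.12), ATP citrate lyase ACLY (log2 1.05 ± 0.10) and the elongase ELOVL7 (log2 2.26 ± 0.14). On the lower side were the fatty acid carrier FABP4 (81.3 ± 25.4 normalized counts in resistant 1 and 1794 ± 1114 in resistant 2) and, chosen after its values were seen, lipoprotein lipase (LPL), at 2661 ± 529 normalized counts in resistant 1 and 82526 ± 19715 in resistant 2 (log2 -4.94 ± 0.26).

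The amino acid stress genes driven by ATF4 were the list with the largest share of members lower in resistant 1 among those plotted: of 26 tested, 1 was higher and 22 were lower, with a median log2 difference of -0.84. ATF5 had 1216, 1271 and 1460.2 normalized counts in resistant 1, against 6329.8, 6004 and 5828 in resistant 2 (log2 difference -2.20 ± 0.11, adjusted p = 5.34e-08), and CHAC1, which degrades glutathione, averaged 2495 ± 547 normalized counts in resistant 1 and 11403 ± 1765 in resistant 2 (log2 -2.20 ± 0.20). ATF4 itself, the amino acid transporter SLC7A5 and the serine synthesis genes PSAT1 and PHGDH were lower by smaller amounts (log2 -0.76, -1.27, -0.90 and -0.85). The one higher member was STC2 (log2 1.07).

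NRF2 targets, the antioxidant genes, included large differences in both directions. The aldehyde dehydrogenase ALDH3A1 had 26393, 30428 and 53604 normalized counts in resistant 1, against 506834, 698581 and 1271599 in resistant 2 (log2 difference -4.45 ± 0.32, adjusted p = 7.35e-07). The carboxylesterase CES1 had 55519, 60848 and 52820.1 normalized counts in resistant 1, against 502, 715 and 906 in resistant 2 (log2 difference 6.35 ± 0.22, adjusted p = 3.16e-09), and 572, 799 and 1004 in parental cells. AKR1C2 and AKR1C3, reductases of steroids and carbonyls, were both lower in resistant 1. AKR1C2 averaged 5245 ± 351 normalized counts in resistant 1 and 103520.4 ± 10577 in resistant 2 and AKR1C3 averaged 15629 ± 684 normalized counts in resistant 1 and 114128 ± 6673 in resistant 2. These values are uncertain because the AKR1C genes are near-identical. The gene for NRF2 itself, NFE2L2, was lower by a small margin (log2 -0.35). Of 29 tested members 4 were higher and 12 lower, but 6 lower without resistant 1 replicate 1 and 7 with quantile normalization. In the hypoxia and glycolysis list 8 of 29 were higher (5 without resistant 1 replicate 3 or resistant 2 replicate 1) and 11 lower. In all 65.5% were called, beside 53.4% of all tested genes. Carbonic anhydrase CA12, on chromosome 15, averaged 801 ± 21.4 normalized counts in resistant 1 and 20982 ± 4409 in resistant 2 (log2 -4.69 ± 0.14) and adrenomedullin (ADM) 5784 ± 1410.5 normalized counts in resistant 1 and 1129.9 ± 355 in resistant 2 (log2 2.37 ± 0.21), and PGK1, LDHA and ENO1 of the glycolytic core did not pass (adjusted p = 0.172, 0.358 and 0.655).

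Lineage transcription factors of lung and airway were lower in 14 of 21 tested members and higher in 3. SOX2, counted among the lower, passed the filter on low values through resistant 2 alone, so its direction was fixed by it. SOX2, a factor of airway progenitors, averaged 1.51 ± 0.471 normalized counts in resistant 1 and 304 ± 56.3 in resistant 2 (log2 -6.93 ± 0.30), FOXP1 566 ± 46.5 normalized counts in resistant 1 and 2860.0 ± 140.4 in resistant 2 (log2 -2.34 ± 0.12), and GATA3 and GATA6 were lower (log2 -2.16 and -1.22). SOX11, a factor of neural development, had the reverse, 677, 702 and 606 normalized counts in resistant 1, against 16.4, 9.59 and 16.3 in resistant 2 (log2 difference 5.49 ± 0.24, adjusted p = 1.48e-08). NKX2-1, the main lung lineage factor, was low in both at 18 ± 8.77 normalized counts in resistant 1 and 88.1 ± 47.8 in resistant 2. Of the Polycomb genes 6 of 29 were higher and 9 lower, 5 lower without resistant 1 replicate 1. EZH2 and SUZ12 were higher (log2 0.56 and 0.51), and CDYL2 and JARID2 lower (log2 -1.59 ± 0.21 and log2 -1.16 ± 0.10). Potassium channel genes were called in 29 of 31 tested members, 8 higher and 21 lower. The calcium-activated channel KCNMA1 had 17757, 18086 and 18335 normalized counts in resistant 1, against 1076, 724 and 713 in resistant 2 (log2 difference 4.46 ± 0.15, adjusted p = 2.62e-09), with 66, 62.2 and 67.1 in parental cells, and its accessory subunit KCNMB4 ran the other way (log2 -3.63 ± 0.20). KCNT2 and KCNQ3 were lower (log2 -4.50 ± 0.23 and log2 -4.43 ± 0.19).

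Several differences concerned very abundant transcripts. Higher in resistant 1 were GPRC5A, a retinoic acid-induced receptor (388955 ± 21278 normalized counts in resistant 1 and 35303 ± 6851 in resistant 2, log2 3.48 ± 0.16), the tetraspanin-like TM4SF1 (399291 ± 48805 normalized counts in resistant 1 and 73445 ± 27472 in resistant 2, log2 2.50 ± 0.22), the protease inhibitor SERPINE2 (581459 ± 3851 normalized counts in resistant 1 and 309124 ± 38227 in resistant 2, log2 0.92 ± 0.11) and guanine deaminase GDA (292431 ± 26183 normalized counts in resistant 1 and 98376 ± 16302 in resistant 2, log2 1.58 ± 0.14). Beta actin (ACTB), often taken as a constant gene, was higher too, with 472804, 508716 and 584977 normalized counts in resistant 1, against 226509, 261077 and 378369 in resistant 2 (log2 difference 0.88 ± 0.16, adjusted p = 0.000871).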

How the data were processed

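RNA was purified with RNeasy kits including a DNase step and made into TruSeq stranded mRNA libraries, per the labels' protocols. Per the submitters' processing notes, the tools were FastQC, MultiQC, STAR, featureCounts and DESeq2, and the genome build was GRCh38 (hg38). Their versions, and whether counting used strand, were not given in the sources used here, so reads of genes that overlap on opposite strands cannot be told apart. For the DMSO libraries the authors deposited a normalized signal per gene: read counts divided by a size factor per library. Whole reads were recovered as the step that makes 100% of the values of a library whole within 0.01. The table of libraries with ATRA and decitabine was not analysed here.

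From the deposited values, log2(normalized count + 1) was fitted over the 9 DMSO libraries with limma 3.58.1 (trend, R 4.3.3). A gene was tested when 3 libraries or more reached 10 normalized counts, which left 21643 of 58051 genes. The contrast was resistant 1 minus resistant 2, and a Benjamini-Hochberg adjusted p under 0.05 was a call. Genes were placed by GENCODE 29. A count of 0 was given a floor of 3 counts per library, and ratios with 1 to 3 reads an exact 95% Clopper-Pearson interval. Floors and intervals cover counting error only. The spread between replicate libraries exceeded counting error (chi-square per degree of freedom 15.4 to 224.9), and no libraries were alike within sampling noise.

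The comparison, the 51 gene lists and the rules were chosen with earlier results of these data known. Named genes were, per direction, the 12 protein-coding genes with the largest log2 difference and the 8 with the largest difference in counts (called, mean of at least 100, groups not overlapping), up to 4 called members of each list with a mean of at least 50, and a fixed set of genes for drug handling, retinoid receptors, growth and adhesion. Other members of lists, and SLFN13, SLFN5, VDR, CYP27B1, LPL and single ZNF genes, were chosen as examples after their values were seen. Genes of the Y chromosome are counted but not named.

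Replicates with the same number in resistant 1 and resistant 2 deviated together from their group means (correlations 0.162, 0.626 and 0.6 over genes), all above the limit of 0.1. Correlations of differently numbered libraries ran from -0.686 to 0.43, the highest being resistant 1 replicate 1 with resistant 2 replicate 2. Same-numbered resistant 1 and parental libraries did not deviate together (-0.211, -0.456 and -0.677). A pairing by number was therefore uncertain. The reported p-values and calls come from the fit without a replicate block, and fits with the block are given as alternatives. Alternatives tried were the resistant libraries alone, other pseudocounts, filters and scalings, edgeR and DESeq2 on the recovered reads, a replicate block, and leaving out each library.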

Additional observations from a re-analysis of the deposited data

How the results depend on the processing

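Leaving out 1 library at a time gave 5024 to 6059 genes higher and 4753 to 5771 lower in resistant 1, and 1296 to 1351 higher and 1176 to 1214 lower by at least 4-fold. The count at least 4-fold higher was 837 with a pseudocount of 8 and 840 with a filter at 50 normalized counts, against 1314; the first shrinks and the second removes genes of low counts. The counts of all calls moved by less than 1.5 times under the other settings: edgeR 4.0.16 called 5988 higher and 5657 lower, and DESeq2 1.42.0 called 5936 and 5748. With the replicate block over 9 libraries, 5603 were higher and 5300 lower, and over the 6 resistant libraries alone, an alternative chosen after seeing the data, 6572 and 6393. Among the 246 named genes followed, the block over 9 libraries changed only the calls of RARA, RXRA, CDKN1B, IER3 and ZNF254. Genes given as further list examples were not all followed, and GDF15, one of these, lost its call with the block.

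Of 246 named genes followed through 20 alternatives, 229 kept direction and call in all. FN1 lost its difference with quantile normalization (adjusted p = 1), which by construction gives the most abundant gene of every library the same value. The direction turned for 2 genes that were not called: DNMT3B ran from -0.072 to 0.186 and RARG from -0.147 to 0.037 when single libraries were left out. The cause of the other changes was not tested.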
